A study of Mus musculus with 9 samples.

Results

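The genes described here encode carriers of long-chain fatty acids and their acyl-CoA esters inside cells: Fabp1, Fabp2, Fabp4, Fabp5 and Fabp7 of the fatty acid binding protein family, and Dbi, which encodes acyl-CoA binding protein. They were taken as the rows of the deposited table with these 6 symbols, 6 of 17442 listed genes, and all 6 were among the 12937 genes with a mean of 10 or more that were tested. The 6 were chosen from a list that was drawn up with the normalised read counts and the genotype contrast of these same livers in view, so their genotype differences are given as a description, with no p-value. How many of the 6 pass the threshold of the fit is counted once beside the share of all genes that pass it, and nothing is read from that count. A difference is always the mean log2(value + 1) in Msr1-/- minus that in wild type, with the standard error (SE) of the fit over all genes in limma.

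Fatty acid binding proteins are small cytosolic proteins that fold into a barrel around the fatty acid they carry, and their common names come from the tissues in which they were found. The liver form, encoded by Fabp1, is among the main soluble proteins of hepatocytes, where it delivers fatty acids to mitochondria, peroxisomes, the endoplasmic reticulum and the nuclear receptor PPAR alpha. Acyl-CoA binding protein belongs to an unrelated fold and holds the activated form of the fatty acid, the acyl-CoA ester, on its way to oxidation or to lipid synthesis.

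RNA of whole livers was sequenced from 5 male mice labelled Msr1-/- and 4 male wild-type mice, all C57BL/6 and all on a high fat-cholesterol diet for 16 weeks with non-alcoholic fatty liver disease. Msr1 encodes a scavenger receptor of macrophages that binds modified lipoproteins, and no group on another diet was analysed here. Each animal gave 1 library of between 15006773 and 18238932 reads, and values are read counts divided by a size factor per liver (normalised read counts). How the mutant line was made, the age of the mice and the strand setting of the counting are not given in the sources used here.

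Msr1 itself was read in every liver, at 156.8, 152.7, 209.1, 185.9 and 172.3 in the livers labelled Msr1-/- and at 255.6, 201.5, 460.5 and 194.5 in wild type. The groups overlapped, and the log2 difference of -0.58 had a two-sided exact permutation p of 0.0476, where 0.0159 is the smallest p that 9 livers allow. Without wild type 3 it was -0.31 (exact permutation p = 0.107), and since a gene total does not show which exons were read, the directions given here assume that the genotype labels are right. Wild type 3 stood apart from all other livers: its score on the leading principal component (41.0% of the variance) was -88.7, against -8.30 to 27.6 in the other 8 livers. Results are therefore given with and without it. Markers of hepatocytes were high in all livers, summing to 1918170 to 2706630 normalised reads in Msr1-/- and 1475710 to 2272040 in wild type over 10 genes led by Alb, with 0 of 10 called.

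The FABP family members lie on 3 chromosomes of the mouse genome build mm10. Fabp5 (chr3:10012548-10016607, plus strand) and Fabp4 (chr3:10204088-10208576, minus strand) lie 187 kb apart, with the family genes Pmp2 and Fabp9 among the genes between them, and Fabp12, a further member of the family, follows Fabp4 after 35.6 kb. Fabp2 lies far away on the same chromosome (chr3:122895072-122899506, plus strand), Fabp1 at chr6:71199827-71205023 (plus strand) and Fabp7 at chr10:57784881-57788450 (plus strand). Dbi is at chr1:120113280-120121078 (minus strand).

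The first 90 coding bases of the 5 Fabp genes, read from the GENCODE M21 transcripts of GRCm38, are shown because the comparison of Fabp4, Fabp5 and Fabp7 below depends on their reads being told apart. Fabp5 is in lower case as the sequence compared with, and capitals in the other genes mark bases that are identical to Fabp5 in a pairwise alignment of the whole coding sequences.
Fabp5: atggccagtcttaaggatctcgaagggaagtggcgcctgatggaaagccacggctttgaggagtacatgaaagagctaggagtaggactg
Fabp4: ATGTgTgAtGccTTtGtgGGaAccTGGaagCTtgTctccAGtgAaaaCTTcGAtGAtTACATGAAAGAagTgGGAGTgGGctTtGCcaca
Fabp7: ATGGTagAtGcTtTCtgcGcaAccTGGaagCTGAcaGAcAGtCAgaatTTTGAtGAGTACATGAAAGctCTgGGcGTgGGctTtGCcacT
Fabp2: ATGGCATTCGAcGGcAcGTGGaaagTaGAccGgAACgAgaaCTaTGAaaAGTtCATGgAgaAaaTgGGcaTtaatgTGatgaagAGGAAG
Fabp1: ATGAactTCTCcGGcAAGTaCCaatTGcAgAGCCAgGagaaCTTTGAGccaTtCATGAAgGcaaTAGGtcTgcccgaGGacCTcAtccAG

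Over those 90 bases, 51 of Fabp4, 55 of Fabp7, 52 of Fabp2 and 52 of Fabp1 matched Fabp5. Over whole coding sequences, Fabp4 was 60.8% identical to Fabp5 and 61.7% identical to Fabp7, Fabp5 was 55.3% identical to Fabp7, and Fabp1 and Fabp2, the liver and intestinal forms, shared 48.8%. No window of 50 bases in the transcripts of Fabp1, Fabp2, Fabp4 or Fabp7 occurred in a transcript of any other gene. In Fabp5, 198 of 938 such windows (21.1%) also occurred in 5 other genes, led by Gm6166 with 19.6% of the windows, and none of those 5 is listed in the table. In Dbi, 14 of 520 windows (2.69%) occurred in Gm12222, which held at most 5.01 normalised reads in an Msr1-/- liver and at most 9.49 in a wild-type liver. How reads from these shared stretches were counted is not given in the sources used here, and the level of Fabp5 carries that uncertainty.

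Set against each other per kilobase of exon, the 6 genes spanned several orders of magnitude within each liver, with Fabp1 at the top. Per kb of exon, Fabp1 stood at 281414 to 340617 normalised reads in Msr1-/- livers and at 221098 to 333164 in wild-type livers. Among 16917 genes with a known exon length it ranked between 2 and 8 in every liver. It took 1.03% ± 0.0985 of all reads in Msr1-/- (SD, n = 5) and 0.986% ± 0.0504 in wild type (SD, n = 4). Of the summed per kb level of the 5 Fabp genes, Fabp1 made up 98.2% to 98.4% in Msr1-/- and 97.8% to 99.2% in wild type.

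Dbi came next, at 16076 to 19721 reads per kb in Msr1-/- and 18266 to 25056 in wild type, ranks 33 to 66. Fabp2 followed at 4512 to 5872 per kb in Msr1-/- and 1712 to 3675 in wild type, ranks 175 to 558, so these leading 3 genes kept their order in all 9 livers without overlap. The 3 minor genes did not keep one order. In Msr1-/- the levels per kb were 163 to 315 for Fabp4, 50.9 to 71.1 for Fabp5 and 31.8 to 46.5 for Fabp7, with no overlap between them. The gap between Fabp5 and Fabp7 there depended on the exon length used. For Fabp7 it was 1250 bp over all exons, while the transcript Fabp7-201 has 804 bases. Before division by length, Fabp5 at 50.3 to 70.1 and Fabp7 at 39.8 to 58.1 overlapped in Msr1-/-. In wild type they were 75.2 to 965 for Fabp4, 198 to 706 for Fabp5 and 37.2 to 123 for Fabp7, and Fabp4 overlapped both of the others, which did not overlap each other.

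**Figure D1:**
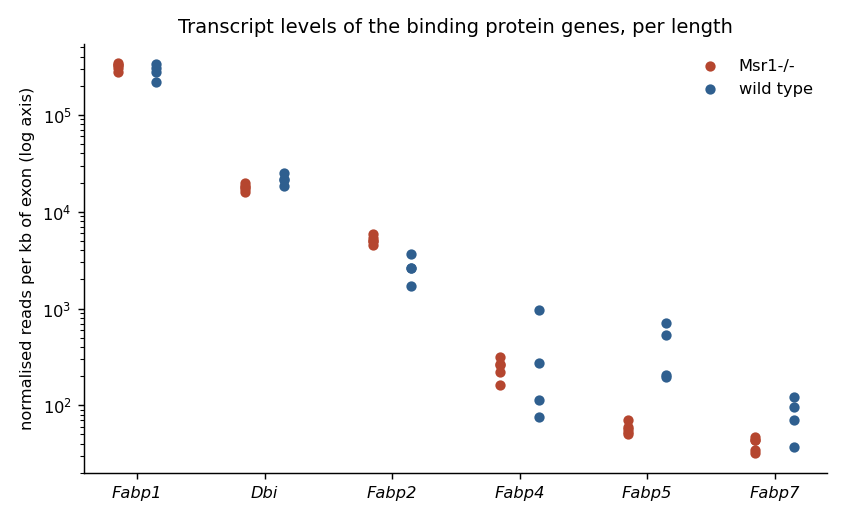
Normalised reads per kb of exon (log axis) of the 6 genes, 1 point per liver, Msr1-/- left of wild type. Fabp1, Dbi and Fabp2 form 3 separate steps in both genotypes. Fabp4, Fabp5 and Fabp7 are separate in Msr1-/- at the exon lengths used, although Fabp5 and Fabp7 overlap there before division by length. In wild type Fabp4 spreads over both Fabp5 and Fabp7.

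Fabp1, the liver form, held 168244, 182150, 188361, 179732 and 155622 normalised reads in Msr1-/- 1 to 5, and 184240, 169501, 122267 and 155102 in wild type 1 to 4. Wild type 3 was the lowest of the 9 livers, wild type 1 and 2 lay inside the Msr1-/- range, and wild type 4 lay just below it. The mean was 174822 ± 12971 in Msr1-/- (SD, n = 5) and 157777 ± 26494 in wild type (SD, n = 4), a log2 difference of 0.16 (SE 0.22). It was 0.04 without wild type 3 and -0.01 under quantile scaling, so its sign depended on the scaling.

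The promoter of Fabp1 is shown because this gene is a textbook target of PPAR alpha, whose other targets are described further on. The window runs from 250 bases before to 50 bases after the RefSeq start (chr6:71199629-71199928, plus strand, GRCm38.p6). Distances below are counted from that start. The gene start in GENCODE M21, chr6:71199827, lies inside the window and upstream of the RefSeq start, so the distances would differ from it. Capitals mark a DR1 match and the letters TATAAA.
Fabp1 promoter: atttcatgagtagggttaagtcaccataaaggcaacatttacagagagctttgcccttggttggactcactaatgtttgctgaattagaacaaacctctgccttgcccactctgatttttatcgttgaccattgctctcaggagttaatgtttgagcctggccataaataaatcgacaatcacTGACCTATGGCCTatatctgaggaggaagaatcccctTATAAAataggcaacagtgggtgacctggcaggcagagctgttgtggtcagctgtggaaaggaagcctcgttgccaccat
DR1 was searched as AGGTCA, 1 free base and AGGTCA, on both strands with at most 1 mismatch in the 12 fixed bases. The match in Fabp1 reads AGGCCATAGGTCA on the minus strand and begins 67 bases before the start, and TATAAA, searched on the sense strand, begins 30 bases before it. The motifs do not overlap. Of 32851 promoter windows of the same length, 0.554% held a DR1 match of this kind and 8.32% held TATAAA. The windows of Fabp2, Fabp7 and Dbi held neither string of letters. No window was available for Fabp4 and Fabp5, which were not searched. A match of letters is a description of the sequence, and no binding was measured here.

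Dbi held 15968, 14809, 17177, 15726 and 14002 normalised reads in Msr1-/- and 18938, 15910, 21824 and 18711 in wild type. Its means were 15536 ± 1204 in Msr1-/- (SD, n = 5) and 18846 ± 2416 in wild type (SD, n = 4). Wild type 1, 3 and 4 lay above every Msr1-/- liver and wild type 2 lay among them, so the groups overlapped. The log2 difference was -0.27 (SE 0.14), and -0.20 without wild type 3. Its sign was the same under every alternative tried.

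Fabp2, the intestinal form, which liver also transcribes, held 4806, 5226, 5666, 4840 and 4354 normalised reads in Msr1-/- and 2516, 1652, 3547 and 2532 in wild type. All 5 Msr1-/- livers were above all 4 wild-type livers, with wild type 3 nearest to them. The mean was 4978 ± 493 in Msr1-/- (SD, n = 5) and 2562 ± 775 in wild type (SD, n = 4), a log2 difference of 1.00 (SE 0.19) or 2.01-fold. When wild type 3 was left out, wild type averaged 2233 ± 503 (n = 3) and the difference was 1.18.

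Fabp2 was higher in Msr1-/- relative to Fabp1 as well. The per kb level of Fabp1 was 58.0 to 64.8 times that of Fabp2 in the 5 Msr1-/- livers, and 127.8, 179.0, 60.2 and 106.9 times in wild type 1 to 4. Wild type 3 fell inside the Msr1-/- range and the other 3 wild-type livers lay above it. Most markers of enterocytes were not listed or were low: Cdx1, Cdx2, Alpi, Sis, Lct, Muc13 and Fabp6 are not listed in the table, and Vil1, which encodes the brush border protein villin, stood at 1.00 to 1.96 in Msr1-/- and 0.949 to 3.92 in wild type. Slc5a1, the gene of an intestinal glucose transporter, stood at 0.913 to 8.19 in Msr1-/- and at 3.21, 2.11, 38.4 and 10.4 in wild type 1 to 4, highest in wild type 3. Of the list of 10, only Mttp was abundant enough to be tested, a gene that hepatocytes also use for lipoprotein assembly, and it was not called (log2 difference 0.40, limma adjusted p = 0.228).

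Fabp2 is overlapped by an antisense gene, 4933405D12Rik, whose mean was 16.2 in Msr1-/- and 5.42 in wild type (log2 difference 1.89, limma adjusted p = 0.195). Without a stated strand setting, reads from the overlap cannot be told apart. The antisense total does not show how many of them either gene gained or lost. Around Fabp2, 0 of the 4 tested genes within 250 kb was called, Pde5a among them at a log2 difference of 0.99 (limma adjusted p = 0.159). Within the same distance, 0 of 4 tested genes was called around Fabp1, 0 of 1 around Fabp5 and 0 of 2 around Fabp7. Near Fabp4 it was 1 of 5, the bile acid transporter family gene Slc10a5 (log2 difference 0.54, limma adjusted p = 0.0499). Near Dbi it was 1 of 4, Tmem37 (log2 difference 0.57, limma adjusted p = 0.0493). The neighbours in these sentences were singled out after their values were seen.

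Fabp5, the epidermal form, also known from macrophages and adipocytes, held 51.9, 56.8, 58.4, 50.3 and 70.1 normalised reads in Msr1-/- and 697.2, 520.1, 204.0 and 195.4 in wild type. The groups did not overlap, the highest Msr1-/- liver standing at 70.1 and the lowest wild-type liver at 195.4. The mean was 57.5 ± 7.81 in Msr1-/- (SD, n = 5) and 404 ± 247 in wild type (SD, n = 4), a log2 difference of -2.58 (SE 0.35) or 5.99-fold lower. It was -2.84 without wild type 3. The wild-type livers themselves fell into a high pair, wild type 1 and 2, and a lower pair, wild type 3 and 4.

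The summed level of macrophage markers was also lower in Msr1-/-. Over the 11 genes of the Kupffer cell and macrophage list the sum was 5305 to 7151 normalised reads in Msr1-/- and 8665 to 18784 in wild type, all 11 differences were negative with a median of -0.89, and 1 (C1qa, a complement subunit gene) was called. Over the 10 genes of lipid-associated macrophages the sum was 921 to 1164 in Msr1-/- and 1753 to 9053 in wild type, again with all 10 negative and 1 called (Lpl, which encodes lipoprotein lipase, log2 difference -2.08, limma adjusted p = 0.041). When wild type 3 was left out, the medians of these lists were -0.65 and -0.80, with 4 of 11 and 3 of 9 tested genes called lower. In wild type 1 to 4 the Kupffer cell sums were 11274, 9641, 18784 and 8665, beside 697.2, 520.1, 204.0 and 195.4 reads of Fabp5: both had the same order in wild type 1, 2 and 4, and wild type 3 had the highest sum with a low Fabp5. Other immune cell markers moved the same way. All 6 tested genes of neutrophils and monocytes were negative with a median of -1.49 and sums of 592 to 965 in Msr1-/- and 1185 to 5577 in wild type, and all 8 tested genes of lymphocytes were negative with a median of -0.63 and sums of 179 to 301 in Msr1-/- and 362 to 582 in wild type. None of these 6 and 8 genes was called over the 9 livers, and 3 of 6 and 1 of 7 were called lower on leaving out wild type 3. In wild type 1 to 4 the sums were 1917, 1753, 9053 and 2438 for lipid-associated macrophages. For neutrophils and monocytes they were 1711, 1185, 5577 and 1647. Neither list had the order of Fabp5, also with wild type 3 set aside. Lymphocyte sums were 581.7, 395.6, 373.4 and 362.4 in wild type 1 to 4, in the same order as Fabp5. Hepatocyte sums were 2272040, 2078230, 1475710 and 1931200, also in the order of Fabp5 in wild type 1, 2 and 4. Over the 9 livers, with the genotype means removed, Fabp5 had a Pearson r of 0.61 with the hepatocyte sum and 0.62 with lymphocytes. With Kupffer cells, lipid-associated macrophages, and neutrophils and monocytes it was -0.28, -0.66 and -0.56. These r values carry no test. The part of these cells in the level of Fabp5 was not tested. In whole liver RNA, fewer cells of a type and less RNA per cell cannot be told apart.

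Fabp4, the adipocyte and macrophage form, held 281.9, 237.8, 197.2, 232.7 and 146.3 normalised reads in Msr1-/- and 67.4, 101.3, 864.5 and 242.9 in wild type. Wild type 3 was the highest and wild type 1 and 2 the lowest of the 9 livers, with the Msr1-/- livers and wild type 4 between them. The mean was 219 ± 50.6 in Msr1-/- (SD, n = 5) and 319 ± 372 in wild type (SD, n = 4), yet the difference of mean log2 values was positive, 0.13 (SE 0.59). With that liver left out, wild type averaged 137 ± 93.1 (n = 3) and the difference was 0.85, and on leaving out wild type 1 or wild type 2 instead it was -0.37 or -0.18. No direction of Fabp4 between the genotypes held across the livers.

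The high Fabp4 of wild type 3 stood beside high sums of several lists in that liver. They were 9053 for lipid-associated macrophages against 1753 to 2438 in the other wild-type livers, 18784 for Kupffer cells against 8665 to 11274, 5577 for neutrophils and monocytes against 1185 to 1711, and 9140 for stellate cells against 4513 to 4841. All 10 genes of lipid-associated macrophages and 8 of 12 PPAR gamma targets of fat storage were highest in wild type 3, among these the lipid droplet genes Cidec at 2247 and Cidea at 469. Wild type 1 and 2 went the other way against the Msr1-/- livers. Their Fabp4 was 67.4 and 101.3, against 146.3 to 281.9 in Msr1-/-. Their sums for lipid-associated macrophages were 1917 and 1753, against 921 to 1164 in Msr1-/-. The Kupffer cell sums were 11274 and 9641, against 5305 to 7151 in Msr1-/-. The adipocyte list was mixed. Plin1, Lep and Retn are not listed, and Adipoq, the adiponectin gene, stood at 0 to 1.06 in Msr1-/- and 1.06 to 3.14 in wild type. Lipe, the hormone-sensitive lipase gene, stood at 116 to 246 in Msr1-/- and 80.8 to 164 in wild type, Adrb3 at 73.1 to 212 in Msr1-/- and 85.5 to 543 in wild type, and Tmem26 at 16.4 to 35.0 in Msr1-/- and 40.1 to 93.4 in wild type, none of them called (log2 differences 0.38, -0.68 and -1.22). Cfd, which encodes adipsin and is also on the adipocyte list, was called higher in Msr1-/- at 231 ± 170 (SD, n = 5) and 24.4 ± 27.4 in wild type (SD, n = 4; log2 difference 3.30, limma adjusted p = 0.0436). Capillary endothelium, where Fabp4 is also known, gave 0 of 9 genes called and sums of 2557 to 3128 in Msr1-/- and 2612 to 3416 in wild type. The part of these cell types in the level of Fabp4 was not tested.

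Fabp7, the brain form, held 55.1, 54.8, 42.9, 39.8 and 58.1 normalised reads in Msr1-/- and 118.7, 88.6, 153.8 and 46.5 in wild type. Wild type 1, 2 and 3 lay above every Msr1-/- liver and wild type 4 lay among them. The mean was 50.1 ± 8.21 in Msr1-/- (SD, n = 5) and 102 ± 45.5 in wild type (SD, n = 4), a log2 difference of -0.90 (SE 0.30), and -0.66 without wild type 3. Of the glial markers S100b, Sox10 and Cdh19 are not listed, and the list summed to 39.1 to 68.5 in Msr1-/- and 48.1 to 76.8 in wild type.

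Other members of the family contributed almost no reads. Fabp6, Fabp9 and Pmp2 are not listed in the table. Fabp3, the heart form, had no read in any liver but wild type 3, where it had 14 reads or 11.0 normalised reads. Fabp12 had at most 1 read per liver in Msr1-/- and 2 to 7 reads per liver in wild type, too few for a test. Both were under the mean of 10.

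**Figure D2:**
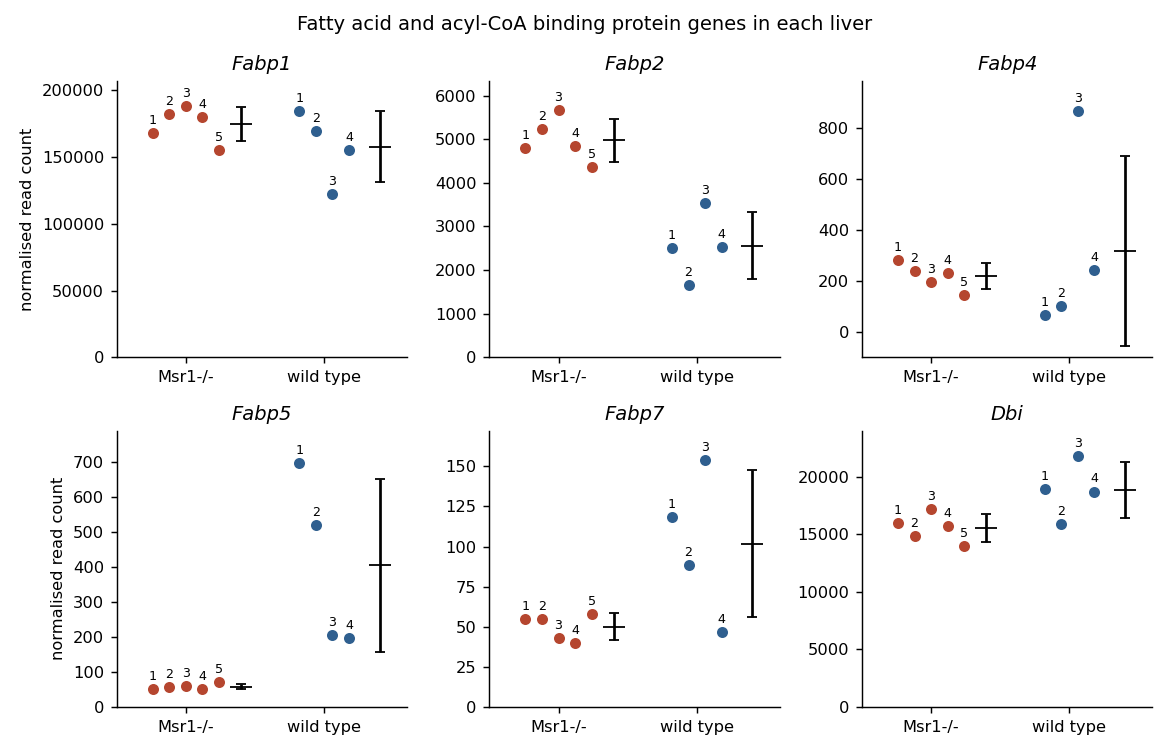
Normalised read counts of the 6 genes in each liver, Msr1-/- left of wild type, with the animal number above each point and the mean ± SD beside each group. Fabp2 and Fabp5 are the genes whose groups do not overlap, and the SD of wild-type Fabp4 exceeds its mean through wild type 3 at 864.5.

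At a limma adjusted p under 0.05, 2 of the 6 genes were called, Fabp2 higher and Fabp5 lower, beside 1.37% of all 12937 tested genes (0.665% higher and 0.703% lower). The same 2 of 6 did not overlap between the genotypes, beside 7.29% of all tested genes, and the same 2 were called without wild type 3, beside 4.91%. By sign, 3 of 6 were positive and 3 negative, with a median log2 difference of -0.07, where the median of all tested genes was 0.02. Leaving out wild type 3 gave a median of -0.08. On leaving out each liver in turn, the log2 difference lay between 0.81 and 1.18 for Fabp2 and between -2.86 and -2.25 for Fabp5.

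The spread between livers separated the minor genes from the abundant ones. This spread holds counting error too, which is larger at few reads and was not separated from differences between animals. In Msr1-/- livers Fabp5 had 43 to 70 reads and Fabp7 34 to 58, and Dbi had at least 13448. In Msr1-/- the SD of log2 values was 0.36 for Fabp4, 0.18 for Fabp5 and 0.24 for Fabp7, where the median over all tested genes was 0.21. In wild type the same genes had SDs of 1.62, 0.93 and 0.73, where the median was 0.34. Fabp1 had 0.11 in Msr1-/- and 0.26 in wild type, and Dbi 0.11 in Msr1-/- and 0.19 in wild type, all below the medians. Fabp2 had 0.14 in Msr1-/-, below the median, and 0.45 in wild type, above it. The wild-type SDs on leaving out wild type 3 were 0.94 for Fabp4, 0.96 for Fabp5 and 0.68 for Fabp7, where the median was 0.24. Over these 3 genes the wild-type livers thus differed among themselves more than the Msr1-/- livers did, with and without wild type 3, which was not tested.

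Fabp4 and Fabp5, in the same cluster on chromosome 3, moved in opposite ways between animals. The per kb level of Fabp4 was 5.98, 4.62, 3.72, 5.10 and 2.30 times that of Fabp5 in Msr1-/- 1 to 5, and 0.106, 0.215, 4.67 and 1.37 times in wild type 1 to 4. Fabp5 exceeded Fabp4 in wild type 1 and 2 and in no other liver. Over the 9 livers, with the genotype means removed, the Pearson r of their log2 values was -0.88, and -0.96 without wild type 3. These values, like every r below, are descriptions over 9 livers of 5 and 4 that share a size factor per library, and they carry no test. The livers do not weigh equally in r. The log2 SDs of Fabp4 and Fabp5 were 0.36 and 0.18 in Msr1-/- and 1.62 and 0.93 in wild type. Without wild type 3 the wild-type SDs were 0.94 and 0.96, so wild type 1, 2 and 4 weigh most in that r. Fabp7 was similar, with 0.24 in Msr1-/- and 0.68 in wild type without wild type 3.

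**Figure D3:**
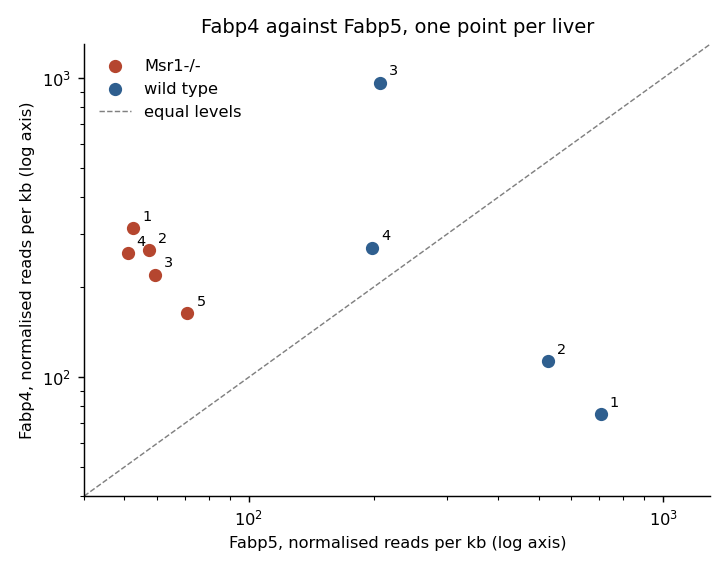
Fabp4 against Fabp5 in each liver, in normalised reads per kb on log axes, with a dashed line where both are equal. The 5 Msr1-/- livers sit together above the line with 2.30 to 5.98 times as much Fabp4 as Fabp5, and wild type 1 and 2 lie below it at 0.106 and 0.215.

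Of the 15 pairs of genes, Fabp2 and Dbi were closest in the same direction, with r of 0.92, and 0.86 without wild type 3. The r of some other pairs depended on wild type 3. Fabp5 and Fabp7 had r of 0.30 over all livers and 0.92 without it. Fabp4 and Fabp7 had 0.18 over all livers and -0.82 without it. Fabp1 and Fabp4 had -0.81 over all livers and -0.37 without it.

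**Figure D4:**
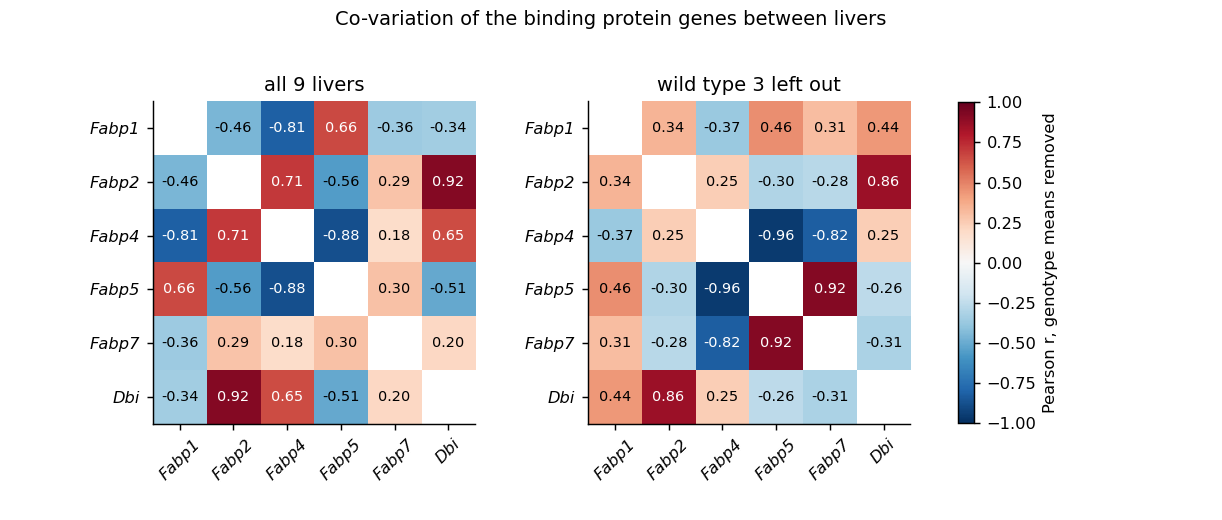
Pearson r of log2(value + 1) between the 6 genes after the genotype means were removed, over 9 livers on the left and without wild type 3 on the right. Fabp2 with Dbi (0.92 and 0.86) and Fabp4 with Fabp5 (-0.88 and -0.96) look alike in both panels, while Fabp5 with Fabp7 changes (0.30 and 0.92).

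Among 11918 candidate genes, those whose pattern over the 9 livers was most like each member, by the same r, were as follows. For Fabp5 they were Klf13, a zinc finger transcription factor gene, with r of 0.98, then Diaph2 and Cbx1, with 0.97 and 0.96. For Fabp4 they were S100a11, a calcium-binding protein gene, Ankrd40 and Tead1, each with 0.99, and S100a11 was 1143 in wild type 3 against 59.9 to 221 in the other wild-type livers. For Fabp2 they were the mitotic genes Aurkb, Ube2c and Zwilch, with 0.99, 0.97 and 0.97, all of them low, at means of 11.2, 33.5 and 16.3 over the 9 livers. For Fabp7 they were Anapc10, Ifit2 and Paqr3 (0.97, 0.96 and 0.95), for Fabp1 Exosc7, Eme2 and Mphosph9 (0.98, 0.98 and 0.97), and for Dbi Ogfod1, Mblac1 and Uhrf1 (0.97, 0.96 and 0.95). When wild type 3 was left out, all 18 values were between 0.92 and 0.99. The highest of 11918 values of r over 9 livers are high by selection, and none of these 18 genes was called.

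Of the other acyl-CoA-binding domain proteins, 0 of 5 tested was called and the median difference was 0.20. The largest were Acbd5, a peroxisomal membrane protein gene, with a mean of 4369 in Msr1-/- and 3389 in wild type (log2 difference 0.37, limma adjusted p = 0.295), and Eci2 at 3397 in Msr1-/- and 2719 in wild type (0.33, adjusted p = 0.249).

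Upstream of the binding proteins, 0 of 15 tested genes of fatty acid uptake and activation was called, with 10 positive differences and a median of 0.26. Acsl1, the main acyl-CoA synthetase gene of liver, averaged 17523 in Msr1-/- and 10399 in wild type (log2 difference 0.78, limma adjusted p = 0.062). It was called at 0.60 on leaving out wild type 3, together with Slc27a4 at 0.61 and the fatty acid translocase gene Cd36 at 2.02. Wild type 3 held 3173 reads of Cd36, against 271.1 to 578.7 in the other wild-type livers.

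Of the PPAR alpha targets of fatty acid oxidation, 3 of 35 tested rose and none fell at an adjusted p under 0.05, with 33 positive differences and a median of 0.48, where the median of all tested genes was 0.02. Cyp4a10, a fatty acid omega-hydroxylase gene, averaged 4316 ± 1162 in Msr1-/- (SD, n = 5) and 1091 ± 547 in wild type (SD, n = 4; log2 difference 2.09, limma adjusted p = 0.023). Angptl4, a secreted inhibitor of lipoprotein lipase, averaged 1962 in Msr1-/- and 1072 in wild type (0.93, limma adjusted p = 0.041). Without wild type 3, 16 of 35 rose and none fell, beside 4.91% of all tested genes called in either direction, and the median was 0.70. Cyp4a14 at 3.58, Acot1 at 1.51, Crat at 1.32 and the lipid droplet gene Plin2 at 1.15 were among these 16. Fabp1, at 0.16 with and 0.04 without wild type 3, lay below both medians, and Fabp2, at 1.00 and 1.18, above them.

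Of the PPAR gamma targets of fat storage, 1 of 11 tested rose, with a median of 0.66. It was G0s2, an inhibitor of adipose triglyceride lipase, at 3780 ± 1415 in Msr1-/- (SD, n = 5) and 1470 ± 323 in wild type (SD, n = 4; log2 difference 1.32, limma adjusted p = 0.028). On leaving out wild type 3, 4 of 11 rose: G0s2 at 1.45, Plin4 at 2.03, Mogat1 at 1.98 and Pparg at 1.16. Of the proteins that receive or hydrolyse the carried lipids, 0 of 14 was called and the median was 0.27. Hacl1, a peroxisomal alpha-oxidation gene, averaged 2570 in Msr1-/- and 1651 in wild type (0.64, limma adjusted p = 0.055), and Soat1, which esterifies cholesterol, 46.5 in Msr1-/- and 97.9 in wild type (-0.97, limma adjusted p = 0.097).

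Among 25 regulators of the binding protein genes, none was called over the 9 livers. Ppara averaged 495 ± 103 in Msr1-/- (SD, n = 5) and 321 ± 59.0 in wild type (SD, n = 4; log2 difference 0.62, limma adjusted p = 0.112). Foxa3, a hepatocyte forkhead factor gene, averaged 546 ± 110 in Msr1-/- and 901 ± 144 in wild type (-0.73, limma adjusted p = 0.064). Both were called on leaving out wild type 3, Ppara at 0.71 and Foxa3 at -0.78, together with Pparg. The median of the 25 was 0.12 with wild type 3 and -0.02 without it.

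**Figure D5:**
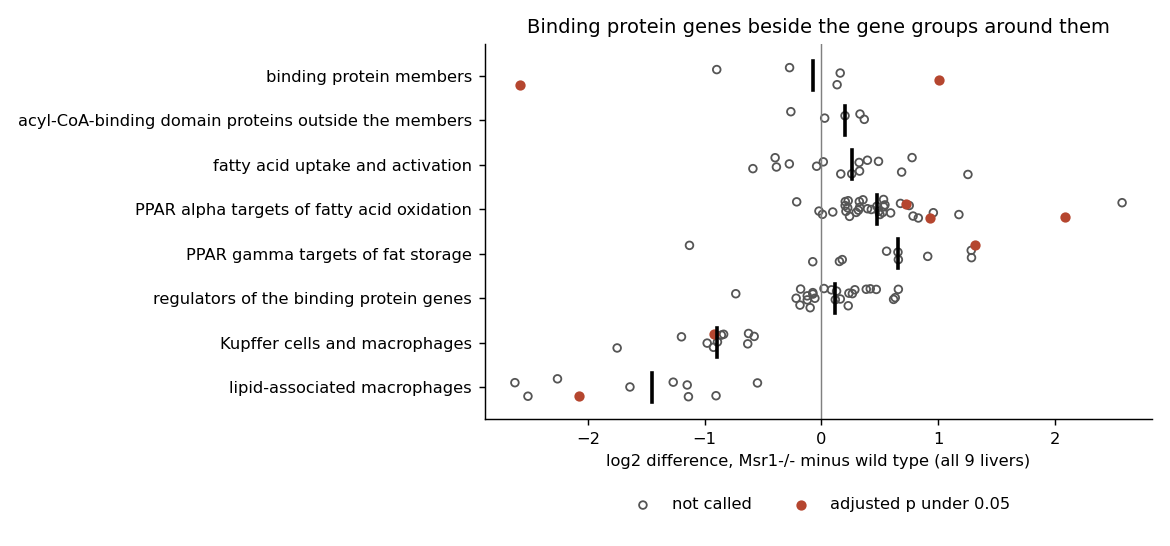
Log2 differences, Msr1-/- minus wild type over all 9 livers, of the 6 binding protein genes and of the gene groups around them, 1 circle per gene, filled where the limma adjusted p was under 0.05, with a bar at each median. The medians of the PPAR alpha and PPAR gamma targets are 0.48 and 0.66, those of the macrophage lists -0.89 and -1.46, and the 6 binding protein genes spread from -2.58 to 1.00.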

How the data were processed

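Per the labels' protocols, liver RNA was made into libraries with a TruSeq RNA kit. The submitters' processing notes name STAR, HTSeq, DESeq2 and mm10, without versions or roles. The signal in the authors' deposited table is a read count over the size factor of that liver. All values (100%) were whole multiples of 1 step per liver to within 0.01 reads, and dividing by the step recovered whole reads. No 2 libraries were duplicates, since chi-square per degree of freedom was at least 21.6 for every pair of livers.

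Values were taken as log2(value + 1), which understates the change of low genes. Genes with a mean of 10 or more were fitted over the whole table with limma 3.58.1 in R 4.3.3, with genotype as the only term and an intensity trend, and called at a Benjamini-Hochberg adjusted p under 0.05. On the recovered reads, edgeR 4.0.16 called 185 genes and DESeq2 1.42.0 called 773, and limma called 177. Genes were matched to GENCODE M21 (GRCm38) by symbol. Only the main limma fit was also run on simulated counts, and its result there is not reported here.

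The members and gene lists were chosen with earlier results of these data known, and so was the rule for named genes. The rule takes the 6 members and their family relatives, Msr1, up to 4 called genes of smallest p per pathway list (2 where none is called), up to 3 markers of highest mean per cell type, and the 3 genes most like each member. Further genes of counts of 5 or fewer, and the examples given without wild type 3, were named after their values were seen. The marker lists not described elsewhere were sinusoidal endothelium (0 of 8 called), hepatic stellate cells (0 of 8, all negative, median -0.34) and cholangiocytes (Sox9 and Tff3 lower, 2 of 4). Same-numbered animals were not treated as pairs in the main fit: their deviations from the genotype means correlated at 0.025, -0.077, -0.10 and 0.22. Depth bears on counting error, which is larger for genes of few reads. Precision depends on that error and on how much animals differ. Some genes of the lists are not reported here.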

Additional observations from a re-analysis of the deposited data

Results flagged for a closer look

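Among the genes named by the rule, 16 of 152 groups of 4 or 5 livers had a liver far from the others of its genotype. Of the 16, 10 were in wild type 3. About 1 in 20 would be expected by chance in independent groups of genes not chosen by their values. These genes were chosen with results known and share the same livers, so nothing is read from the count. None of the 16 was among the 6 binding protein genes. Of their relatives, Fabp3 was at 11.0 in wild type 3 and at 0 in the other wild-type livers, and Fabp12 was at 0 in Msr1-/- 5, a difference of 1 read from the other Msr1-/- livers. In wild type 3 the highest values were Lyz2 at 4949, Lpl at 4057, C1qb at 2543, Spp1 at 1505, S100a11 at 1143, Cd9 at 760, Dcn at 5352 and Mbp at 30.6, while Cd4 was the lowest of wild type there at 7.84. Angptl4 was far above the other wild-type livers in wild type 2, at 1647, and Cfd in wild type 4, at 65.5. Reln was far below in wild type 1, at 544, and Adrb3 in Msr1-/- 1, at 73.1, while Diaph2 was far above the rest of its genotype in Msr1-/- 5, at 214.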

How the results depend on the processing

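Alternatives covered the pseudocount (0.5 or 5), the filter (none, or a mean of at least 50), scaling by TMM or quantiles, edgeR and DESeq2, array weights, a replicate block by animal number, and each liver in turn left out. Runs of edgeR and DESeq2 that leave out wild type 3 were added after the data were seen. The count of called genes was 177 in limma, 773 with DESeq2, 531 with array weights, 8 with the replicate block, 656 with edgeR and 1059 with DESeq2 when wild type 3 was left out, and 36 to 629 over the 9 fits without 1 liver, 629 being the one without wild type 3. The sign of Fabp1 turned under quantile scaling (-0.009; 0.04 to 0.24 without 1 liver). Fabp4 turned with edgeR (-0.56), with DESeq2 (-0.55), without wild type 1 (-0.37) and without wild type 2 (-0.18), its range without 1 liver being -0.37 to 0.85. Which of the 6 genes count as called also changed, and no support for a difference is drawn from it. Fabp2 was no longer counted under quantile scaling (0.91), with the replicate block (1.05) and in the 8 fits that left out a liver other than wild type 3 (0.81 to 1.18 over all 9). Fabp5 was not counted with the replicate block (-2.65; -2.86 to -2.25 without 1 liver). Fabp7 was counted with DESeq2 (-1.03) and without wild type 4 (-1.23; -1.23 to -0.66 without 1 liver). Dbi kept its sign throughout (-0.35 to -0.20 without 1 liver). The replicate block set same-numbered animals against each other, which the main fit did not. No wild-type animal has the number of Msr1-/- 5, so that liver did not add to the block's differences. For the 6 genes they equalled those of the fit without Msr1-/- 5. Msr1 lay at -0.72 to -0.31 without 1 liver, past the threshold only without Msr1-/- 3. The median of the regulators turned to -0.016 without wild type 3. Called targets outside the 6 genes lost their calls easily: Angptl4 kept its call in 2 of 9 fits without 1 liver, and Cyp4a10 and G0s2 in 4. The causes were not tested.

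With 5 and 4 livers, the wild-type spread of Fabp4 and Fabp7 limits what can be said of their differences. The sign of Fabp4 turned under some alternatives. Fabp7 was negative under all of them, and its groups overlapped.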
